A study of Mus musculus with 3 samples.

Results

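The genes described here form, load and take up glutamate, the main excitatory transmitter of the cortex. They were 9 genes chosen by symbol for their role in these steps: the vesicular glutamate transporters Slc17a6, Slc17a7 and Slc17a8, the glutamate-forming enzymes Gls2, Glud1, Got1 and Got2, the glutamine carrier Slc38a1 and the neuronal glutamate transporter Slc1a1. All 9 of 9 were found among the 32531 gene symbols of each count table. The libraries came from 1 group, in which RNA bound to tagged ribosomes was immunopurified from prefrontal cortex of untreated adult transgenic mice of the line Slc17a6-TRAP JX883, with 3 libraries and 3 mice pooled per library. The mice express ribosomal protein L10a fused to EGFP from the Slc17a6-EGFP/Rpl10a transgene, so that antibodies to EGFP capture messages from cells in which the Slc17a6 driver is active. Sex and exact age are not stated by the labels, and no input or untagged sample was analysed, so each value is a level in the captured RNA and not an enrichment.

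Glutamate reaches a synaptic vesicle by a chain of steps. Neurons take up glutamine, which astrocytes supply, through carriers such as SNAT1. Glutaminase turns it into glutamate, while aminotransferases and glutamate dehydrogenase exchange glutamate with intermediates of the citric acid cycle. Vesicular transporters then load it with energy from a proton gradient, and transporters of the plasma membrane clear it after release. In the adult rodent cortex VGLUT1, encoded by Slc17a7, is the usual vesicular transporter of cortical pyramidal cells, VGLUT2, encoded by Slc17a6, is typical of thalamic and other subcortical inputs, and VGLUT3, encoded by Slc17a8, is found in scattered neurons that also use another transmitter.

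The driver locus and its relatives are shown first because the Slc17a6 driver decides which cells were tagged. RefSeq promoter windows on GRCm38.p6, of which mm10 is another name, were available for 7 of the 9 genes. The 250 bases before the annotated start are printed 5′ to 3′ on the strand of the gene, with each CpG dinucleotide in capitals. The windows are chr7:51621580-51621829 on the plus strand for Slc17a6, chr7:45163671-45163920 on the plus strand for Slc17a7, chr10:89621250-89621499 on the minus strand for Slc17a8 and chr14:34310477-34310726 on the plus strand for Glud1, which is shown as the window richest in CpG among the genes. Sequence just after the annotated start was found in a GENCODE M21 transcript of the same gene for the printed windows of Slc17a8 and Glud1. It was not found for those of Slc17a6 and Slc17a7, and the Slc17a6 window ends before the GENCODE gene start at 51622006. Whether the transgene holds the Slc17a6 window is not stated by the labels.
Slc17a6: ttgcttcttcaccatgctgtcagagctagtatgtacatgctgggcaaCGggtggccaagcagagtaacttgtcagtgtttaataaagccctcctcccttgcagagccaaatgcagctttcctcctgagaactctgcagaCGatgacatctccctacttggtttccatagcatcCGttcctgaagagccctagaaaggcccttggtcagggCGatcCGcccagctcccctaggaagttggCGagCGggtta
Slc17a7: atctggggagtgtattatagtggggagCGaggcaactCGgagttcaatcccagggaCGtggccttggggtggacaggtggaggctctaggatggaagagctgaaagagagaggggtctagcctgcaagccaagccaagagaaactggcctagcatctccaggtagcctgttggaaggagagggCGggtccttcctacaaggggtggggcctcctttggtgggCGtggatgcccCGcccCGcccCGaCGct
Slc17a8: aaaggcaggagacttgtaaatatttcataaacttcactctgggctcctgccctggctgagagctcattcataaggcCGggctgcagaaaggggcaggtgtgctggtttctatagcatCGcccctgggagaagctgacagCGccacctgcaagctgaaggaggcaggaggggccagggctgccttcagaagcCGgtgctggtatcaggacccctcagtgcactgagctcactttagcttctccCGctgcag
Glud1: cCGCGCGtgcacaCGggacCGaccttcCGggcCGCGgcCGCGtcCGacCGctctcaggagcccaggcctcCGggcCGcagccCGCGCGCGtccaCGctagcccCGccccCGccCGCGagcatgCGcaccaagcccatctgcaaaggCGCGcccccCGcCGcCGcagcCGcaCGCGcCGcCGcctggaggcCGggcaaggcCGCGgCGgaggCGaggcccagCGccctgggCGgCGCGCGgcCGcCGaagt
The vesicular transporters had few CpG dinucleotides in these windows, with 7 for Slc17a6, 9 for Slc17a7 and 5 for Slc17a8, close to the median of 6 over 32851 promoter windows. The other 4 genes with a window had more, with 11 for Got1, 19 for Got2, 27 for Slc1a1 and 46 for Glud1. A second annotated start of Slc17a6 (chr7:51624387-51624636) and of Slc17a8 (chr10:89599816-89600065) had 3 CpG each. The GC box letters GGGCGG, searched on both strands, matched once in the printed Slc17a6 window, 3 times in that of Slc17a7 and 3 times in that of Glud1, and were not in that of Slc17a8. They were in 32.7% of all windows. The TATA letters TATAAA, searched likewise, were in 12.4% of all windows and, among these genes, in that of Got2. Neither motif can match inside the other, and overlap with further motifs was not examined.

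Library totals over named genes ranged between 8964137 and 12648577 counts, with replicate 2 the shallowest. Levels are given as counts scaled to a common total (CPM), which allow a gene to be compared between libraries. They are also given as TPM, which divide counts by gene length before that scaling, and allow genes to be compared with each other. Marker lists of cell types are given for context, and their detection does not test the labelled tissue. All 10 of 10 excitatory neuron markers reached 1 CPM in every library, with Camk2a, a kinase subunit of excitatory neurons, highest at 1934 ± 182 TPM and the layer factor gene Cux2 lowest at 18.1 ± 5.18 TPM (SD, n = 3). Markers of GABAergic neurons reached 1 CPM in every library for 9 of 10 genes, astrocyte markers for 10 of 10, oligodendrocyte markers for 7 of 8, microglia markers for 6 of 8 and endothelial markers for 2 of 6. Over all genes, 12321 of the 18377 with a count in any library reached it. The glial and vascular lists ran from 157 ± 17.8 TPM for the myelin gene Cnp to 1.65 ± 0.99 TPM for Opalin, from 27.7 ± 8.28 TPM for the microglial protease gene Ctss to 0 counts of the complement gene C1qa, and from 15.9 ± 1.65 TPM for Itm2a to 0.175 ± 0.152 TPM for the endothelial receptor gene Kdr. The labels tell the libraries apart only as separate samples, so p-values measure the spread between these samples.

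As a group the glutamate genes were abundant in the captured RNA. All 9 reached 1 CPM in every library, Slc17a8 with as little as 1.66 CPM. Over all genes, 12321 of the 18377 with a count in any library did so, and detection alone says little of 9 genes. Their median level per length was 108 TPM, against a median of 19.7 TPM over the genes tested that had a length. In CPM, which leave length out of account, their median was 307, against 16.2 over all genes tested. Together the 9 genes held 2800 ± 96.1 CPM. In bulk RNA of this kind, fewer cells that make a message and less message per cell cannot be told apart.

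**Figure D1:**
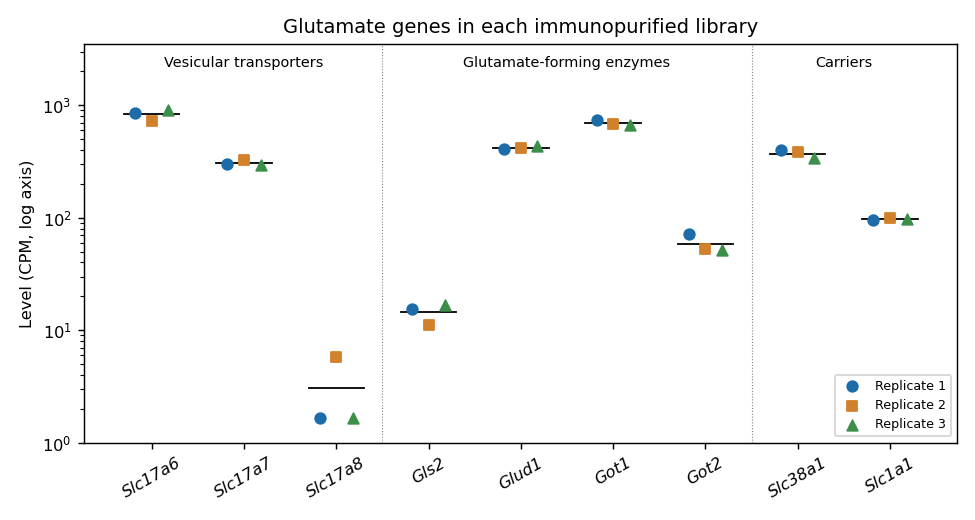
Level of each glutamate gene in CPM (log axis) in replicates 1, 2 and 3, with a bar at the mean. The levels run from Slc17a8, at 1.66 to 5.80 CPM, to Slc17a6, at 723 to 913 CPM, and replicate 2 stands apart for Slc17a8.

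Slc17a6, the driver gene, lies on mm10 chromosome 7 at 51622006 to 51671119. It had 10796, 6484 and 11546 counts in replicates 1, 2 and 3, equal to 857, 723 and 913 CPM. Replicate 2 was the lowest and the highest library exceeded it by 1.26-fold. Per length it stood at 770.5 ± 89.5 TPM (SD, n = 3), rank 146 of the genes with a matched length. It shared no exonic base with another annotated gene. Whether sequence of the transgene adds reads to this gene was not tested.

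Slc17a6 is also used as a marker of thalamic neurons, so markers of neighbouring regions are given beside it. Of 8 thalamic markers, Slc17a6 among them, 7 reached 1 CPM in every library, while the thalamic factor gene Gbx2 had 0 counts in all libraries. Without Slc17a6, the other 7 markers summed to 392.4, 369.4 and 333.6 CPM in replicates 1, 2 and 3. Rora, Ntng1 and Calb2, the most abundant of them in CPM, were each lowest in replicate 3. Lhx9, at 19.1, 8.14 and 17.2 CPM, and Prkcd, at 6.91, 6.69 and 9.80 CPM, were lowest in replicate 2, as was Slc17a6. These genes were named after their values were seen. Named after its values were seen, Tcf7l2, a transcription factor gene, was the 1 marker of this list called in the edgeR test of variation described further on (adjusted p = 0.0429), with 7.86, 32.4 and 20.6 CPM, highest in replicate 2. Of 7 markers of olfactory bulb output neurons 6 reached 1 CPM in every library. The peptide precursor gene Trh was highest at 104 ± 44.9 TPM, with the transcription factor gene Tbx21 lowest at 2.78 ± 2.71 TPM. Their summed level was 194, 159 and 82 CPM. Cdhr1, a cadherin-family gene also named after its values were seen, was the 1 marker of this list called in the same edgeR test (adjusted p = 2.28e-15), with 116, 95.9 and 17.3 CPM. Without it the others summed to 77.4, 62.8 and 64.7 CPM, a sum of genes that moved in opposite directions. Trh was lowest in replicate 1, at 15.5 CPM, and had 30.6 CPM or more in the other libraries. Eomes, at 22.1, 7.14 and 5.06 CPM, and Doc2g, at 13.3, 10.4 and 1.74 CPM, fell from replicate 1 to replicate 3. So did Tbx21 and Lhx1, while Lhx5 was lowest in replicate 2. Eomes, Doc2g, Lhx1 and Lhx5 were named after their values were seen. In the edgeR test 5 of the 7 markers, Trh among them, had an unadjusted p under 0.05, where 7.22% of all genes passed. Of 8 striatal markers all reached 1 CPM, with the highest level for Penk, which encodes the precursor of enkephalin, at 616 ± 160.0 TPM, and the lowest for the adenosine receptor gene Adora2a at 10.9 ± 8.18 TPM. Their summed level was 406, 559 and 643 CPM. Their part in the level of Slc17a6 was not tested.

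Slc17a7, on chromosome 7 at 45163949 to 45176142, had 3813, 2921 and 3692 counts, equal to 303, 326 and 292 CPM. Its libraries differed by at most 1.12-fold, and replicate 2, the lowest for Slc17a6, was the highest here. Per length it stood at 285 ± 16.5 TPM. Within each library Slc17a6 lay above Slc17a7, by 1.15 in replicate 2 and 1.64 in replicate 3 at the extremes on the log2 scale of TPM + 0.5. The mean difference was 1.43 ± 0.25 (SD, n = 3), or 2.69-fold, with the same sign in 3 of 3 libraries (p = 0.25 in an exact two-sided permutation test that flips signs). Of 7 contrasts of this kind, each had that p, and after Benjamini-Hochberg adjustment over them it was again 0.25. With 3 libraries 0.25 is the smallest p that this test can give, so no contrast between genes could pass 0.05. The levels of the pair did not overlap. Cells were captured because the Slc17a6 driver was active in them, so this difference describes the captured RNA and not the cortex as a whole. The part of that selection in the difference was not tested.

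Slc17a8, on chromosome 10 at 89574020 to 89621253, was the rarest of the genes. It had 21, 52 and 21 counts in replicates 1, 2 and 3, equal to 1.67, 5.80 and 1.66 CPM. Exact (Clopper-Pearson) 95% binomial intervals, which cover counting error only and treat reads as independent, were 1.03 to 2.55, 4.33 to 7.61 and 1.03 to 2.54 CPM. The interval of replicate 2 lay above both others without overlap. The edgeR goodness of fit described further on did not call this spread (adjusted p = 0.926, unadjusted p = 0.153). The trend of that fit for genes of this abundance was a coefficient of variation of 52.0%, which leaves out counting error. Per length the level was 3.23 ± 2.54 TPM. Slc17a7 exceeded it by 6.46 ± 0.82 log2 units, equal to 87.9-fold, with 1 sign in 3 of 3 libraries (exact permutation p = 0.25). With the length of the longest transcript in place of merged exons the fold was 139.

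Of the summed TPM of the vesicular glutamate transporters, Slc17a6 made up 73.8%, 68.5% and 75.6% in replicates 1, 2 and 3, or 72.6% ± 3.71 (SD, n = 3). Slc17a7 made up 26.1%, 30.9% and 24.2%, and Slc17a8 0.164%, 0.628% and 0.157%. The share of Slc17a6 was thus lowest, and that of each other transporter highest, in replicate 2. These shares hold for RNA captured through the Slc17a6 driver, and not for the cortex as a whole.

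Vesicular transporters outside the glutamate family lay below Slc17a6 and Slc17a7 and, for some, above Slc17a8. Slc32a1, which loads GABA and glycine, had 286, 362 and 378 counts, equal to 22.7, 40.4 and 29.9 CPM, and stood at 55.5 ± 16.1 TPM. Slc17a6 exceeded it by 3.82 ± 0.55 log2 units, equal to 14.1-fold, with 1 sign in 3 of 3 libraries (exact permutation p = 0.25). Here too the cells were selected by the Slc17a6 driver, and the part of that selection was not tested. Of the exonic bases of Slc32a1, 24.9% are shared with the antisense gene Gm14205. In this list of 6 genes the sialic acid transporter gene Slc17a5 came next at 24.9 ± 4.04 TPM and the vesicular nucleotide transporter gene Slc17a9 was lowest at 0 counts. The monoamine transporter gene Slc18a2, named after its values were seen, was the other gene to reach 1 CPM in every library besides Slc32a1 and Slc17a5, at 5.24 ± 1.05 TPM, which makes 3 of 6. Slc18a1 and Slc18a3 did not reach 1 CPM in every library. Markers of GABAergic neurons other than Slc32a1 had summed levels of 1065, 1117 and 1161 CPM in replicates 1, 2 and 3. In CPM the largest part of these sums was Gad2, at 670, 579 and 629 CPM. Per length the list was led by Sst at 1237 ± 355 TPM with the homeobox gene Dlx6 lowest at 2.34 ± 1.48 TPM. None of these markers was at 0. Their part in the level of Slc32a1 was not tested.

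Among the glutamate-forming enzymes, Got1 stood highest. Got1 encodes the cytosolic aspartate aminotransferase, which makes glutamate from aspartate and 2-oxoglutarate, and lies on chromosome 19 at 43499752 to 43524605. It had 9376, 6105 and 8444 counts, equal to 745, 681 and 668 CPM. Replicate 1 was the highest by 1.12-fold over the lowest. At 1375 ± 77.0 TPM it was the most abundant of the 9 genes per length and rank 73 of the genes with a matched length.

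Got2 encodes the mitochondrial aspartate aminotransferase and lies on chromosome 8 at 95864134 to 95888547. It had 894, 476 and 652 counts, equal to 71.0, 53.1 and 51.5 CPM, with replicate 1 above both others. Per length it stood at 60.7 ± 11.0 TPM. Got1 exceeded Got2 by 22.7-fold, or between 4.31 and 4.61 log2 units (SD 0.17, n = 3), with 1 sign in 3 of 3 libraries (exact permutation p = 0.25). The fold was 14.7 with the longest transcript and 11.9 in CPM, which leaves length out of account. Of the exonic bases of Got2, 9.00% are shared with an annotated gene on the other strand.

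Glud1 encodes glutamate dehydrogenase, a mitochondrial enzyme that interconverts glutamate and 2-oxoglutarate, and lies on chromosome 14 at 34310727 to 34345265. It had 5136, 3759 and 5470 counts, equal to 408, 419 and 432 CPM, a spread of 1.06-fold over the libraries. Per length it stood at 499 ± 15.8 TPM, below Got1 and Slc17a6 among the 9 genes.

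Gls2 encodes the liver-type glutaminase, a mitochondrial enzyme that releases glutamate from glutamine, and lies on chromosome 10 at 128194457 to 128210004. It had 196, 100 and 213 counts, equal to 15.6, 11.2 and 16.8 CPM, with exact 95% binomial intervals of 13.5 to 17.9, 9.08 to 13.6 and 14.7 to 19.3 CPM. Replicate 2 was the lowest, and its interval overlapped that of replicate 1 and not that of replicate 3. Per length Gls2 stood at 20.9 ± 4.27 TPM, near the median of 19.7 TPM over the genes tested that had a length. Glud1 exceeded it by 4.56 ± 0.30 log2 units, equal to 23.7-fold, with 1 sign in 3 of 3 libraries (exact permutation p = 0.25).

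Slc38a1 encodes SNAT1, a sodium-coupled carrier that brings glutamine into neurons, and lies on chromosome 15 at 96571418 to 96642913. It had 4986, 3413 and 4261 counts, equal to 396, 381 and 337 CPM, with replicate 3 the lowest. Its merged exons span 17236 bases, against 7266 for its longest transcript, so its level per length depended on the choice, at 108 ± 8.73 TPM with merged exons and 193 ± 15.4 TPM with the longest transcript. Its relative Slc38a2, which encodes the more widely expressed carrier SNAT2, had 117, 118 and 107 CPM and 64.7 ± 3.37 TPM. Slc38a1 exceeded Slc38a2 by 0.73 ± 0.05 log2 units, equal to 1.66-fold, with 1 sign in 3 of 3 libraries (exact permutation p = 0.25), and by 2.72-fold with the longest transcript.

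Slc1a1 encodes EAAC1, the glutamate transporter of neuronal cell bodies and dendrites, and lies on chromosome 19 at 28835049 to 28913960. It had 1193, 893 and 1232 counts, equal to 94.7, 99.6 and 97.4 CPM, the narrowest spread of the 9 genes at 1.05-fold. Per length it stood at 59.0 ± 1.65 TPM. Of its exonic bases 31.9% are shared with 4430402I18Rik on the other strand, which had 80, 58 and 69 counts. The sources used here do not state whether counting used strand, and reads of this pair may not have been told apart.

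Slc1a2 encodes GLT-1, the glutamate transporter made mainly by astrocytes. It had 926, 1062 and 966 CPM and stood at 375 ± 27.7 TPM. The difference of Slc1a1 from Slc1a2 was -2.66 ± 0.07 on the log2 scale in 3 of 3 libraries (exact permutation p = 0.25), so that Slc1a2 was 6.31-fold higher, or 3.30-fold higher with the longest transcript. The summed level of the 9 astrocyte markers other than Slc1a2 was 1170, 1258 and 1617 CPM in replicates 1, 2 and 3. Glul alone held 681, 743 and 955 CPM of that sum. None of these markers was at 0, the highest was Glul and the lowest Aldh1l1 at 6.29 ± 2.42 TPM. Their part in the level of Slc1a2 was not tested.

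**Figure D2:**
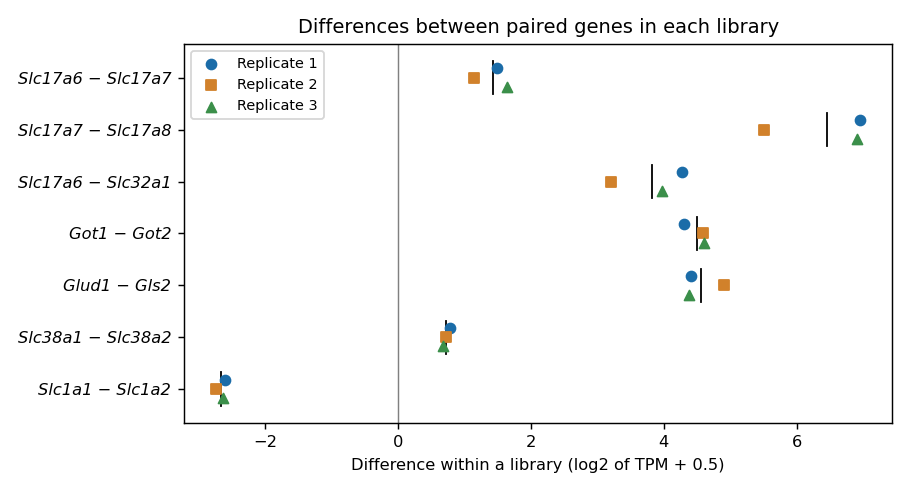
Within-library difference of each pair of genes (log2 of TPM + 0.5, first gene minus second) in replicates 1, 2 and 3, with a bar at the mean. All 7 pairs keep their direction in 3 of 3 libraries, and the means run from -2.66 for Slc1a1 against Slc1a2 to 6.46 for Slc17a7 against Slc17a8.

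Ordered per length, the genes ran Got1, Slc17a6, Glud1, Slc17a7, Slc38a1, Got2, Slc1a1, Gls2 and Slc17a8. Of the 8 neighbouring pairs in this order, 7 had levels that did not overlap between the libraries, each in 1 direction in 3 of 3 libraries (exact permutation p = 0.25, adjusted p = 0.286). The exception was Got2 and Slc1a1, whose difference of 0.03 ± 0.28 on the log2 scale was smaller than its spread and had the direction of the mean in 1 of 3 libraries (p = 1 in the same exact test). The order comes from the same values, so these differences are a description. With the longest transcript as length, Got2 and Slc1a1 changed places and the other 7 genes kept theirs.

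**Figure D3:**
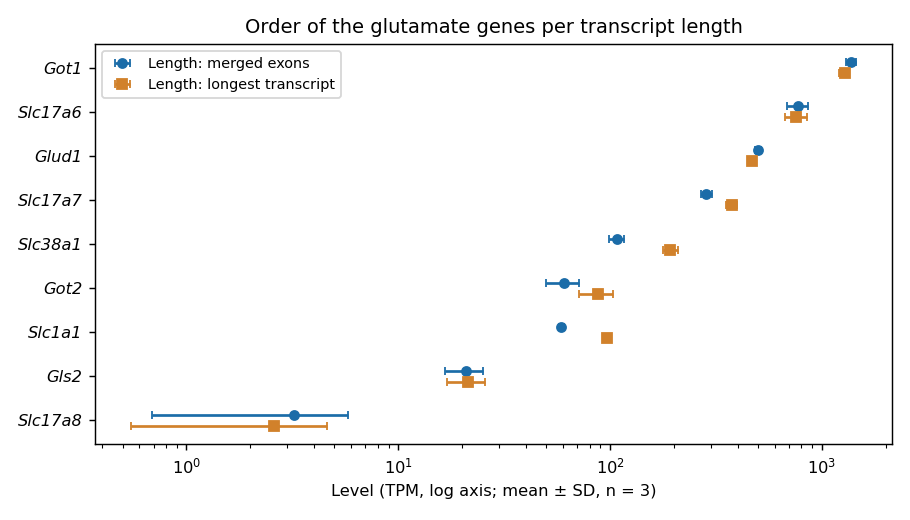
Mean level of each glutamate gene in TPM (log axis), with bars for the SD over 3 libraries, computed with the length of merged exons and with that of the longest transcript. The order is the same for both lengths except for Got2 and Slc1a1, and Slc38a1 moves between 108 and 193 TPM.

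The other question the design allows is whether a gene varied between the 3 libraries more than genes of like abundance. Goodness of fit of a negative binomial model with trended dispersion in edgeR, with Benjamini-Hochberg adjustment over 14774 genes, called 36 genes, or 0.244%. Of the glutamate genes, 0 of 9 were called. At an unadjusted p of 0.05 it was again 0 of 9, where 7.22% of all genes passed. A limma variance test called 0 of 9 where 0.0812% of all genes were called. At such shares 9 genes are too few for a count of 0 to say anything of them. Unadjusted p-values from this edgeR fit ran between 0.153 for Slc17a8 and 0.950 for Slc1a1, and the smallest adjusted p was 0.926. A p that misses the threshold does not show that levels were equal.

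The coefficient of variation over the libraries had a median of 8.26% over the 9 genes, against 19.3% over all genes tested, most of which were less abundant. It was 2.51% for Slc1a1, 2.93% for Glud1, 5.65% for Slc17a7, 5.89% for Got1 and 8.26% for Slc38a1. It was larger for Slc17a6 at 11.7%, Got2 at 18.5%, Gls2 at 20.5% and Slc17a8 at 78.5%. For genes as abundant as Slc17a6 the edgeR trend, which leaves out counting error, was 10.6%.

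**Figure D4:**
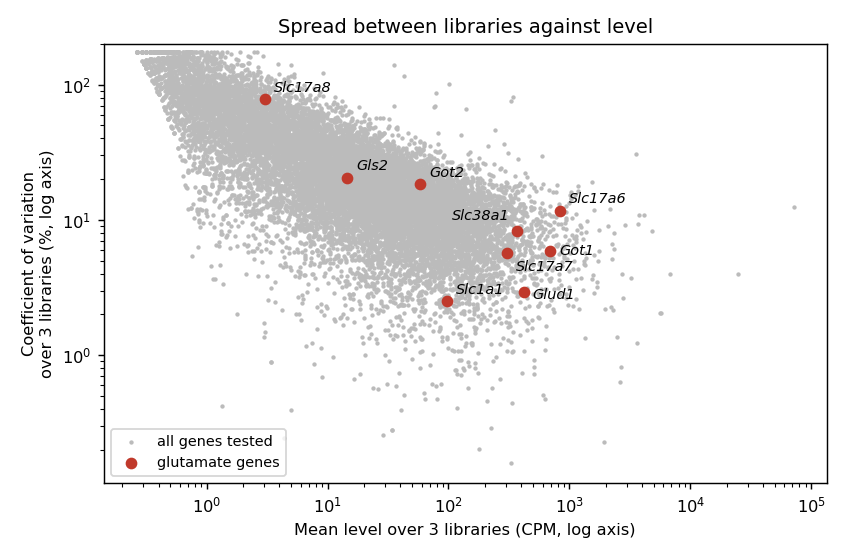
Coefficient of variation over the 3 libraries against mean level in CPM (both log axes) for the genes tested and for the glutamate genes. Slc1a1 and Glud1 have the lowest values of the 9, at 2.51% and 2.93%, and Slc17a8, the least abundant, has the highest at 78.5%.

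The neighbouring steps of the pathway were followed in 5 lists of 55 genes, of which 54 were in the tables and 42 reached 1 CPM in every library. Over all genes, 12321 of the 32531 symbols, or of the 18377 with a count, reached it. Of the 49 tested, 0 varied at an adjusted p of 0.05 in edgeR, where 0.244% of all genes did, a share too low for this count to say anything of the list. The acetylcholine transporter gene Slc18a3 alone had an unadjusted p under 0.05 (0.00111, adjusted p = 0.19), with 0, 0 and 34 counts in replicates 1, 2 and 3. That is 1 of 49, where 7.22% of all genes passed.

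Genes of glutamate and glutamine metabolism reached 1 CPM in every library for 14 of 16. Glul, the astrocytic glutamine synthetase, was the highest of them at 1195 ± 218 TPM, and replicate 3 was its highest library at 955 CPM, with 681 and 743 CPM in replicates 1 and 2. The 9 astrocyte markers other than Glul summed to 1415, 1576 and 1629 CPM in replicates 1, 2 and 3. Slc1a2 alone held 926, 1062 and 966 CPM of that sum. The part of these markers in the level of Glul was not tested. Gad2, which turns glutamate into GABA, followed at 533 ± 37.0 TPM. The proline-degrading enzyme gene Prodh was lowest at 1.89 ± 0.26 TPM.

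Glutamine carriers reached 1 CPM in every library for 10 of 15. Slc6a17, which encodes a neutral amino acid transporter of synaptic vesicles, was highest at a mean of 276 TPM, with replicate 2 highest at 311 TPM, and lay above Slc38a1. Slc7a8, a light chain of heteromeric amino acid transporters, followed at 77.1 ± 4.48 TPM, and Slc38a5 and Slc38a8 were lowest with 0 counts in all libraries. Of the plasma membrane glutamate transporters and their partners 7 of 8 reached 1 CPM in every library. After Slc1a2 came Slc3a2, the heavy chain shared by several amino acid exchangers, at 76.9 ± 5.24 TPM, and Slc1a7, a transporter best known from the retina, had 0 counts.

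Mitochondrial glutamate carriers and genes of the malate-aspartate shuttle, in which Got1 and Got2 act, reached 1 CPM in every library for 8 of 9. The cytosolic malate dehydrogenase gene Mdh1 was highest at 2047 ± 207 TPM, followed by its mitochondrial counterpart Mdh2 at 559 ± 52.0 TPM, so that the cytosolic form lay above the mitochondrial form for this enzyme as for the aminotransferase. Mdh1 exceeded Mdh2 by 3.66-fold with merged exons, by 2.0-fold with the longest transcript and by 2.64-fold in CPM. This pair was compared after its values were seen, so its likeness to the aminotransferase pair is a description. The citrin gene Slc25a13 was lowest at 1.72 ± 0.70 TPM. Chosen after their values were seen, Slc25a12, which encodes the aspartate-glutamate carrier aralar, stood at 217 ± 14.5 TPM, and the glutamate carrier genes Slc25a22 and Slc25a18 at 88.7 ± 7.90 and 15.8 ± 5.96 TPM.

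**Figure D5:**
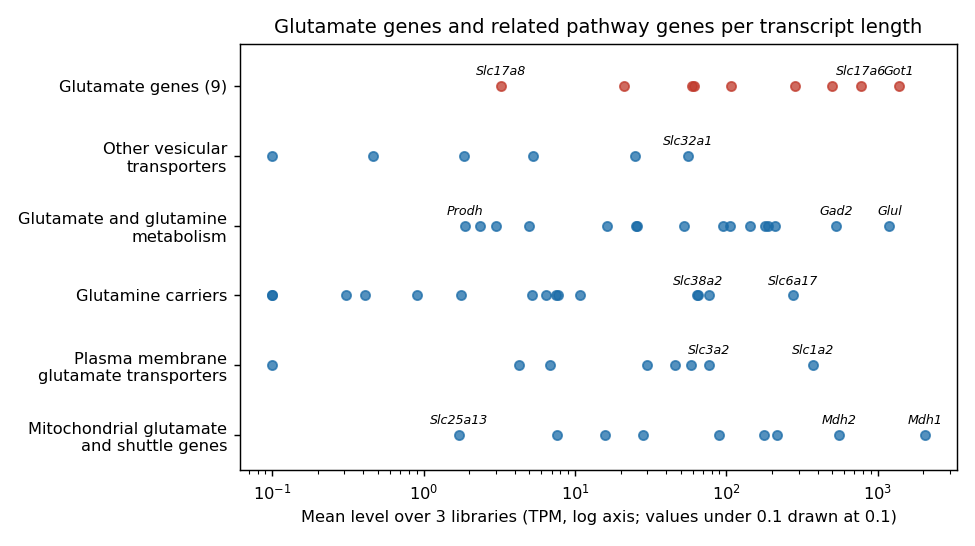
Mean level in TPM (log axis) of the 9 glutamate genes and of the genes of 5 related pathway lists, 1 point per gene. Got1 at 1375 TPM is the highest of the glutamate genes, and Mdh1 at 2047 and Glul at 1195 TPM lead their lists.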

How the data were processed

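For each of 3 immunopurified libraries of 1 group, the authors deposited a table of raw counts by gene symbol. STAR 2.0.0e, HTSeq and mm10 are named per the submitters' processing notes, while their settings, the annotation and the use of strand are not stated in the sources used here. Lines that name no gene held 27.8% ± 0.56 of counts (SD, n = 3) and were left out of totals and tests. CPM were computed over named genes, and TPM from the lengths of merged GENCODE M21 exons, matched by symbol for 87.1% of symbols with a count. Differences between genes used log2(TPM + 0.5) within a library and an exact sign-flip permutation test. A sign-flip test treats each library as its own block. Variation between libraries was tested in edgeR 4.0.16 (TMM, trended dispersion, 2 degrees of freedom) on genes whose highest library had 10 counts or more, and the test was checked on simulated counts. Because there is no contrast, edgeR's quasi-likelihood test could not be used. Alternatives used limma 3.58.1 and DESeq2 1.42.0 size factors. R 4.3.3, Python 3.11.15, numpy 2.4.6 and pandas 2.3.3 were used. Each pair of libraries differed by more than sampling noise (chi-square per degree of freedom of 10.7, 14.8 and 11.8). Intervals cover counting error only. They treat reads as independent, while PCR reads with no molecular identifier are not, so the intervals may be too narrow.

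The genes and lists were chosen with earlier results of these data known. By rule the text names all 9 genes, the genes of the contrasts, and the 2 highest and the lowest of each pathway list and the highest and the lowest of each marker list by mean TPM.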

Additional observations from a re-analysis of the deposited data

How the results depend on the processing

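Directions of all 7 differences between genes were the same in CPM, with the longest transcript, with a pseudocount of 0.1 or 1 and without each replicate in turn. With 2 libraries the smallest p of the sign-flip test is 0.5. The share of Slc17a6 among vesicular glutamate transporters was 66.5% with the longest transcript, against 72.6% with merged exons, a move larger than the SD between libraries. The median level of the 9 genes was 331 CPM with the ribosomal RNA precursor gene Rn45s left out of library totals, against 307 CPM with it. The number of glutamate genes called as varying was 0 under every alternative run. With 9 genes and few calls over all genes in most of these runs, that count says little. The number of neighbouring pairs without overlap was within 1.5 times the 7 reported. The adjusted p nearest to the threshold was that of Slc17a8 with a common dispersion in edgeR (0.0984), with a range over its alternatives up to 0.999. Over all genes the number called was 17 with 10 counts required in every library, 12 with limma, 1097 with a common dispersion, 18 at an adjusted p of 0.01, and 16 to 21 without a replicate, against 36. For pathway genes, alternatives added after seeing the data (1 TPM or 5 CPM for detection, and each replicate left out) gave counts within 1.5 times of 42. No paired analysis was possible because there is only 1 group. Depth limits Slc17a8 most, with 21 to 52 counts.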
